A study of Mus musculus with 12 samples.

Results

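The comparison described here is the effect of an siRNA against lincRNA-Tnfaip3 in RAW264.7 cells that were not stimulated with lipopolysaccharide (LPS). It was made by taking the 3 arrays whose titles name the lincRNA siRNA alone and the 3 arrays whose titles name the control siRNA alone, 6 of the 12 arrays of the study. RAW264.7 is an established mouse macrophage line. An siRNA is a short double-stranded RNA that is loaded into the RNA interference machinery and directs the cutting of a matching transcript. The control group received a control siRNA for 24 h and was then cultured for another 4 h without LPS, and the lincRNA-siRNA group received the siRNA against lincRNA-Tnfaip3 on the same schedule. The other 6 arrays, 3 per siRNA, came from cells given E. coli LPS, a bacterial cell wall molecule and ligand of TLR4, at 1 µg/ml during those 4 h. All groups therefore carried an siRNA, and no array of cells without siRNA was analysed here. Everything rests on 1 cell line, and nothing in the labels says that replicates were separate cultures. The spread behind every p-value is therefore that between these arrays and may be technical. No feature of the array carries the name of the targeted lincRNA, so its knockdown was not analysed here.

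Long intergenic noncoding RNAs are transcripts without a protein product that lie between coding genes, and several of them act in the inflammatory program of macrophages. LincRNA-Tnfaip3 is encoded next to Tnfaip3, the gene of the ubiquitin-editing enzyme A20, which ends NF-kB signalling after an inflammatory stimulus. The lincRNA has been described as an NF-kB-induced transcript that acts with the chromatin protein HMGB1 and with NF-kB at inflammatory genes. A macrophage without LPS holds most of NF-kB in the cytoplasm, bound to its inhibitors, and keeps a low tonic activity of type I interferon genes.

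RNA was labelled with Cy3 and hybridised to 1-colour Agilent arrays with 55681 probes each. Values below are scaled log2 signals, the log2 of the processed signal of a probe after each array was set to the same 75th percentile (8.59 on this scale), so a difference of 1 is a 2-fold difference. The slides did not carry the groups evenly. Control arrays 1 and 2 lay on slide 1, and control array 3 lay on slide 2 together with lincRNA-siRNA arrays 1, 2 and 3. Each slide was also 1 scan, so slide and scan cannot be told apart. Between 27217 and 35083 probes were well above background on the 6 arrays, with the fewest on the control arrays of slide 1 (27217 and 29477, against 32734 to 35083 on slide 2). No difference between the groups was detectable in that number (30592 ± 4050 against 33619 ± 1060, SD, n = 3 each, two-sided exact permutation test p = 0.4, where 0.1 is the smallest p that 3 arrays against 3 allow). No spot was saturated. Of 22 macrophage markers on the array, 19 were well above background on all 6 arrays and Mertk on none, and their summed level was 18.51 to 18.68 on the control arrays and 18.74 to 18.79 on the lincRNA-siRNA arrays. Of 47 markers of other cell types, 18 were well above background on all 6 arrays and 16 on none, including Alb, Apoa1 and Ttr of hepatocytes and Cdh1, Epcam and Krt8 of epithelium. The summed levels of the T cell markers were 11.31 to 12.08 on control and 11.98 to 12.43 on lincRNA-siRNA arrays, those of the neutrophil markers 9.55 to 9.68 and 9.54 to 10.37, and those of the fibroblast markers 7.74 to 8.17 and 8.07 to 9.13, and their part in the results was not tested. The largest difference in the lists of other cell types was that of S100a8 of neutrophils (1.31). Other lists were led by Cd3e (0.84, and 0.36 with the slide as a block), Col1a2 (1.23, and 0.19 with that block) and Flt3 (0.83). The remaining lists were led by Snap25 (0.50, and -0.34 with that block), Cd79a (0.42, and -0.26 with that block), Kdr (0.33, and 0.14 from another probe) and Hba-a1 (0.18). None of these genes passed the test. In such bulk RNA, fewer cells of a type and less RNA per cell cannot be told apart.

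The resemblance of the arrays did not follow the siRNA alone. Over 18553 features that were well above background on all 12 arrays, Pearson's r was 0.992 between control arrays 1 and 2, which share slide 1. Control array 3 correlated with lincRNA-siRNA arrays 1, 2 and 3, its neighbours on slide 2, at 0.994, 0.992 and 0.986, and with control arrays 1 and 2 at 0.987 and 0.99. A total of 668 features (3.6%) differed by more than 2-fold between control arrays 1 and 2, and 1161 (6.26%) and 859 (4.63%) between each of them and control array 3. Control array 3 differed from lincRNA-siRNA arrays 1, 2 and 3 at 420 (2.26%), 509 (2.74%) and 1119 (6.03%), so that on this count arrays 1 and 2 were nearer to it than both other controls, and array 3 was not nearer than control array 2. The lincRNA-siRNA arrays were not alike either. Arrays 1 and 2 differed by more than 2-fold at 527 features (2.84%), arrays 2 and 3 at 938 (5.06%) and arrays 1 and 3 at 1537 (8.28%). LincRNA-siRNA array 3 correlated best with an array of the control siRNA with LPS, array 2 of that group (0.99).

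No feature passed the test for the lincRNA siRNA without LPS. A linear model (limma) was fitted to 23820 features on all 12 arrays, and after Benjamini-Hochberg adjustment 0 features had a p under 0.05 (0% of those tested). The smallest adjusted p was 0.0779, for Hook1. Without adjustment, 4371 features (18.4%) had a p under 0.05, of which 2989 (12.5% of all tested) were higher and 1382 (5.8%) lower with the lincRNA siRNA. Of all features, 58.2% had a difference above 0 and 41.8% below 0, and the median difference was 0.07. With the slide as a block, which leaves the 3 lincRNA-siRNA arrays against control array 3, 614 features (2.58%) had an unadjusted p under 0.05 and 1 passed after adjustment (0.0042%). That feature, the unnamed transcript DQ140166, was singled out after its values were seen. DQ140166 was at 4.16, 4.29 and 6.83 on control arrays 1, 2 and 3 and at 4.50, 4.34 and 4.15 on the lincRNA-siRNA arrays, so the difference came from control array 3 alone.

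Leaving out 1 array moved that count for 4 of the 6 arrays. Without lincRNA-siRNA array 1, 129 features passed (0.542% of those tested), 102 of them higher (0.428%). Without control array 3, 2540 passed (10.7%), 2235 of them higher (9.38%), but then both remaining control arrays lay on slide 1 and every lincRNA-siRNA array on slide 2, so siRNA and slide cannot be told apart. Without lincRNA-siRNA array 3, 8 features passed, with Hook1 as the only one that was higher. Without control array 1, only Ccdc189 passed, at 3.46, 5.29 and 5.60 on the control arrays and 3.26, 3.10 and 3.24 on the lincRNA-siRNA arrays. Weighting each array by its estimated quality gave 4927 features (20.7%), 3712 of them higher (15.6%), with weights of 0.41 for control array 3 and 3.02 for control array 2.

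The 10 genes with the smallest unadjusted p, 5 in each direction, did not pass but differed between the siRNAs on every array. The 5 higher genes encode a linker of endosomes to microtubules (Hook1), the receptor for niacin and beta-hydroxybutyrate (Hcar2), a magnesium transport protein (Cnnm2), the mitochondrial topoisomerase (Top1mt) and transaldolase of the pentose phosphate pathway (Taldo1). The 5 lower genes encode a p53-induced stress protein (Trp53inp1), a core splicing factor (Sf3b1), the receptor for the complement fragment C3a (C3ar1), a subunit of the SAGA coactivator complex (Supt7l) and an actin-severing cofilin (Cfl2). A choice by smallest p between these same arrays favours genes whose arrays do not overlap, so their separation is a description only. In each of the 10, the 3 lincRNA-siRNA arrays lay on 1 side of all 3 control arrays. Across all features, 2880 (12.1%) did so above the controls and 2210 (9.28%) below them.

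Hook1, with its probe at chr4:95690707-95690766 (mm9), was at 2.36, 2.15 and 2.46 on the control arrays and at 5.06, 5.27 and 4.13 on the lincRNA-siRNA arrays. It was not well above background on any control array, so its ratio is given as a bound, at least 1.99-fold higher, beside a fitted difference of 2.50 ± 0.27 (SE, limma adjusted p = 0.0779). For such a bound the mean of the brighter group was divided by a floor, which on each dim array is the lowest well-above-background signal, or the signal of the probe itself where that is greater. The slide-blocked difference was 2.36, and with normexp background correction and quantile normalization the difference was 0.40. Taldo1, with its probe at chr7:148588764-148588823, was at 15.23, 15.17 and 15.17 with the control siRNA and at 15.83, 16.01 and 16.07 with the lincRNA siRNA. The tight groups gave a difference of 0.78 ± 0.11 (1.72-fold, limma adjusted p = 0.109), and it was 0.80 within slide 2. Hcar2 (probe at chr5:124313731-124313790) had control values of 8.09, 8.08 and 8.33 against 8.99, 9.37 and 9.38, a difference of 1.08 ± 0.14, and a second probe gave 1.56. Cnnm2 (probe at chr19:46953011-46953070) stood at 8.25, 8.29 and 8.64 against 9.30, 9.47 and 9.59, a difference of 1.06 ± 0.14. In both genes control array 3 was the highest control, and the slide-blocked differences were smaller (0.92 and 0.81). Top1mt (probe within chr15:75487632-75488160) stood at 10.39, 10.20 and 10.51 against 11.32, 11.26 and 11.13, a difference of 0.87 ± 0.12.

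Among the lower genes, Trp53inp1 (probe at chr4:11101174-11101233) was at 9.08, 9.01 and 8.78 on the control arrays and at 7.95, 7.91 and 7.85 on the lincRNA-siRNA arrays. The difference was -1.05 ± 0.13 (a ratio of 0.482), but another probe of the gene gave 0.37, so the probes disagreed in direction. C3ar1 (probe at chr6:122798222-122798281) was at 9.86, 9.80 and 9.86 against 9.19, 9.07 and 9.26. Its difference was -0.67 ± 0.09 (a ratio of 0.629, limma adjusted p = 0.113) and hardly depended on the slide (-0.69 with the block). Sf3b1 (probe at chr1:55042223-55042282) was at 8.45, 8.31 and 8.27 against 7.55, 7.36 and 7.25, a difference of -0.96 ± 0.13. Supt7l (probe at chr5:31817640-31817699) stood at 5.36, 5.64 and 5.59 against 4.66, 4.16 and 4.32, and Cfl2 (probe at chr12:55961445-55961504) at 9.79, 9.57 and 9.68 against 8.98, 9.09 and 8.88. Their differences were -1.15 ± 0.17 and -0.70 ± 0.11, and -1.21 and -0.70 within slide 2.

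**Figure D1:**
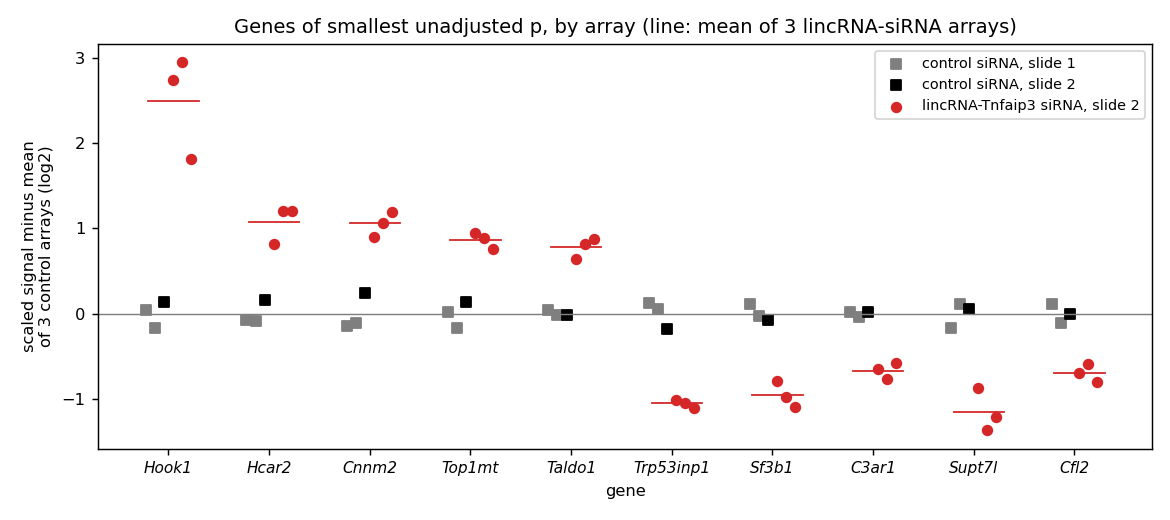
Scaled log2 signal of the 10 genes with the smallest unadjusted p, each array shown as its difference from the mean of the 3 control arrays, with control arrays of slide 1 in grey, the control array of slide 2 in black, lincRNA-siRNA arrays in red and their mean as a line. In all 10 genes, which were chosen by p between these same arrays, the red points lie on 1 side of all control points. The mean difference runs from 2.50 for Hook1 to -1.15 for Supt7l.

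The 6 arrays with LPS did not enter the difference by which these genes were chosen, but they entered the estimate of spread behind its p. The choice therefore favoured genes with little spread on the arrays with LPS too. The shares of all features given below are not matched for that, so the counts are not an independent test. With LPS the 3 control-siRNA arrays and lincRNA-siRNA array 1 lay on slide 2 and lincRNA-siRNA arrays 2 and 3 on slide 3, so the groups differ in slide there too. The difference between the siRNAs had the same sign with LPS in 10 of the 10 genes (64.1% of all features). In 9 the 3 arrays of each siRNA did not overlap in that direction (9.26% of all features), and 8 had an unadjusted p under 0.05 (4.71% of all features). On slide 2 alone, lincRNA-siRNA array 1 with LPS was beyond all 3 control arrays in that direction in 10 of the 10 (36.1% of all features). None of the 10 passed after adjustment with LPS, where 0 of 23820 features passed. With LPS, Taldo1 was at 15.11, 15.12 and 15.34 against 15.95, 16.17 and 16.01, a difference of 0.85. Cnnm2 differed by 0.82 and Top1mt by 0.64, and Cfl2, Trp53inp1 and Sf3b1 differed by -0.52, -0.52 and -0.51. The largest gap between the conditions was that of Hook1, which differed by 2.50 without and 0.53 with LPS (3.75, 3.66 and 3.26 against 4.24, 4.03 and 4.00), with an interaction adjusted p of 0.894 in limma.

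The lincRNA-siRNA arrays were divided by their interferon-stimulated genes, the antiviral genes that type I interferon induces. For most of these genes lincRNA-siRNA array 1 was at or below the level of the controls, and arrays 2 and 3 were above them. Of 50 tested genes of a list of 52, 45 were higher on array 2, and 45 on array 3, than on every control array, and 1 was so on array 1, against 34.8%, 36.9% and 34% of all features. Relative to control array 3 on the same slide, 8 of 50 were higher on array 1, 48 on array 2 and 48 on array 3. The median gene of the list was 1.59 higher on array 2 and 1.72 higher on array 3 than on array 1. Averaged over the 3 arrays, 48 of the 50 were higher with the lincRNA siRNA and the median difference was 0.84 (0.87 with the slide as a block), against 0.07 over all features. None passed after adjustment (smallest limma adjusted p = 0.201). At an unadjusted p under 0.05, 15 were higher and 0 lower (12.5% and 5.8% of all features). In 1 of the 50, Ifi44l, all lincRNA-siRNA arrays were above all controls, as they were in 12.1% of all features.

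Ifi44, an antiviral gene with its probe at chr3:151394035-151394094, was at 5.59, 6.37 and 5.73 on the control arrays and at 5.97, 10.78 and 10.73 on lincRNA-siRNA arrays 1, 2 and 3. Array 1 was thus within the control range and the other two were far above it, and the mean difference of 3.26 carried a standard error of 1.09 (limma adjusted p = 0.225). Irf7, the transcription factor that amplifies interferon production (probe within chr7:148450664-148451014), showed the same split at 7.82, 8.33 and 7.99 against 7.71, 10.96 and 10.98. Usp18, a protease that removes the ISG15 tag and dampens the interferon receptor, was at 8.29, 8.97 and 8.33 against 8.09, 11.53 and 11.79. Isg15 itself was at 11.17, 11.71 and 11.39 against 11.09, 13.47 and 13.66. In these 3 genes array 1 was below every control. Their differences over the 3 arrays were 1.83 ± 0.72, 1.94 ± 0.80 and 1.32 ± 0.61, and a second probe of Isg15 gave 1.53.

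The enzymes and sensors of the antiviral state had the same profile. Oasl2, of the oligoadenylate synthetase family, was at 5.65, 6.52 and 6.07 against 5.69, 9.56 and 9.79, and Oas1g at 4.09, 4.61 and 4.24 against 4.49, 6.23 and 6.49. Zbp1, a sensor of Z-form nucleic acids that can start necroptosis, was at 8.19, 8.62 and 7.87 against 7.47, 10.90 and 11.00. Xaf1, an interferon-induced regulator of apoptosis, was at 8.0, 8.72 and 8.14 against 7.90, 10.70 and 10.68. Ifi44l differed from these, since array 1 (4.93) also exceeded the controls (3.68, 4.34 and 4.02), below arrays 2 and 3 (7.61 and 7.76). It was well above background on only 1 of the 3 control arrays. Trim30a, a ubiquitin ligase, and Mx1, an antiviral GTPase, were not well above background on any control array and were so on only 2 of the 3 lincRNA-siRNA arrays. Trim30a was at 2.66, 3.94 and 3.23 against 2.91, 7.38 and 7.88, a bound of 4.32-fold for the mean of the 3 arrays. Mx1 was at 2.19, 1.95 and 0.78 against 1.09, 5.01 and 5.41, a bound of 1.01-fold. Both means include array 1, which was not well above background, so neither bound holds for that array. Under other processing choices the difference was as low as 1.22 for Trim30a and 0.44 for Mx1.

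Other genes of the list, and the chemokine Cxcl10 outside it, had a small mean difference over the 3 arrays. Ifit1, which blocks translation of viral RNA, was at 7.78, 8.53 and 8.0 against 7.70, 8.38 and 8.76, a difference of 0.18 (95% interval -0.50 to 0.86). Rsad2, which encodes viperin, was at 8.41, 9.28 and 8.21 against 7.77, 8.93 and 9.25, a difference of 0.02 (-0.91 to 0.95, and 0.44 with the slide as a block). Cxcl10, an interferon-induced chemokine, was at 11.56, 11.93 and 11.82 against 11.20, 12.07 and 12.17, a difference of 0.04, while another of its probes gave -1.08. Ifnb1, the gene of interferon beta, was at 4.82, 5.60 and 4.59 against 4.27, 5.71 and 5.97, a difference of 0.32 ± 0.44 (0.73 with the block). In all 4, lincRNA-siRNA array 1 was below every control array, and array 3 was above every control in all but Rsad2. Herc6 and Gbp5 were the 2 genes of the list that were lower, by -0.11 and -0.05. With LPS, the median of the list differed by -0.01 between the siRNAs.

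The calls in this list turned on lincRNA-siRNA array 1. Without that array, 27 of the 50 genes passed, all higher, against 0.542% of all features, and without control array 3, 1 of the 50 passed. Array weights also gave 27 of 50 (against 20.7% of all features). Without lincRNA-siRNA array 1 the difference was 4.86 ± 0.47 for Ifi44 (limma adjusted p = 0.00751), 3.13 ± 0.27 for Usp18 and 2.92 ± 0.24 for Irf7 (both 0.00682). That array is singled out here because most of these genes were not raised on it. Passing without it therefore follows from the values behind that choice and is a description only. The median of the list was 0.58 to 1.36 when any single array of the 6 was left out.

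**Figure D2:**
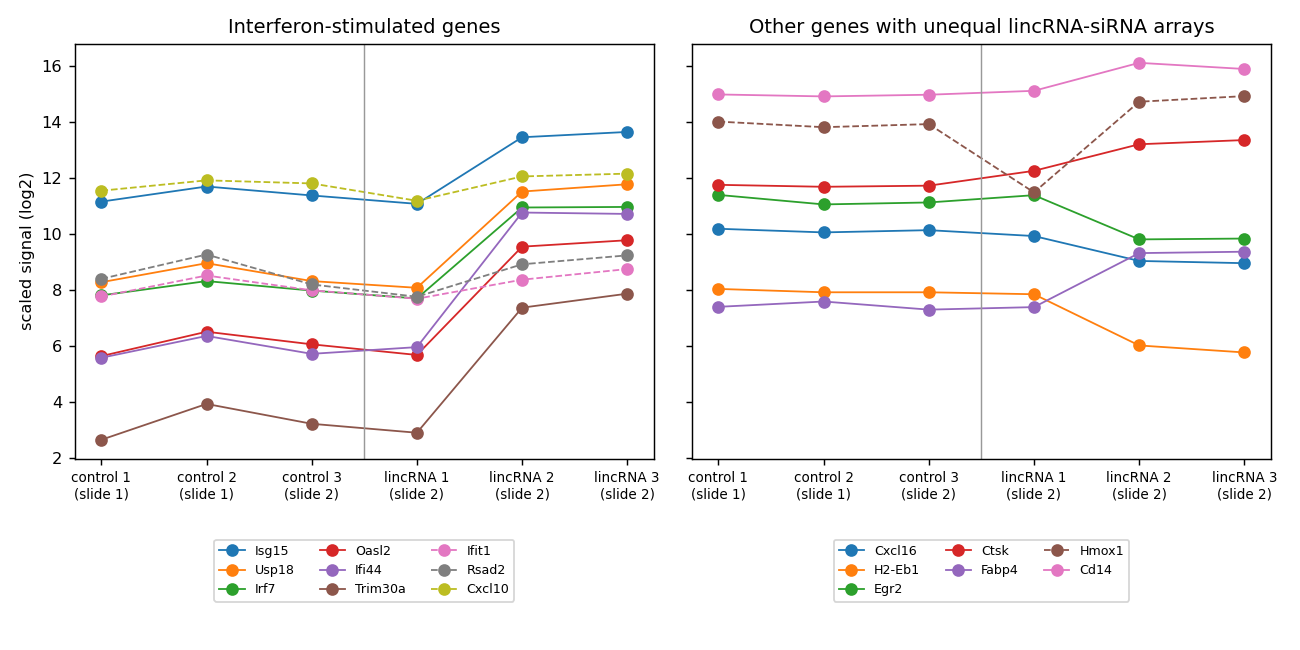
Scaled log2 signal on the 6 arrays without LPS for 9 interferon-stimulated genes (left) and 7 other genes (right), with 1 colour per gene and a line joining the values of a gene only to guide the eye. Solid lines on the left (Isg15, Usp18, Irf7, Oasl2, Ifi44 and Trim30a) are near the controls on lincRNA-siRNA array 1 and far above them on arrays 2 and 3, dashed lines (Ifit1, Rsad2 and Cxcl10) have mean differences of 0.18, 0.02 and 0.04, and on the right Hmox1 (dashed) is low on array 1 alone.

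Promoters of the list were searched for GAAANNGAAA, a motif of the interferon-stimulated response element, on both strands and within the 250 bases before each start in the RefSeq table of build GRCm38.p6. A match starts with GAAA and ends with GAAA 2 bases later, or reads TTTCNNTTTC on the other strand, and matches may overlap. Of 38 listed genes with a promoter in the table, 18 held a match (47.4%), against 978 of all 32851 promoters (2.98%), 331 of 11858 promoters of tested gene symbols (2.79%) and 6 of 51 of the ribosomal protein genes (11.8%). A match is a description and not a binding site. The 4 stretches below, all on the minus strand, are shown because their genes differed between the lincRNA-siRNA arrays as described and their promoters differ in this motif, with matches in capitals. Isg15 (chr4:156200819-156201068) has 3 overlapping matches, beginning 78, 72 and 66 bases before the start, Oas1g (chr5:120887614-120887863) has 2, beginning 18 and 12 bases before it, Trim30a (chr7:104465194-104465443) has 1 on the other strand, 36 bases before it, and Ifi44 (chr3:151749911-151750160) has 0.
Isg15: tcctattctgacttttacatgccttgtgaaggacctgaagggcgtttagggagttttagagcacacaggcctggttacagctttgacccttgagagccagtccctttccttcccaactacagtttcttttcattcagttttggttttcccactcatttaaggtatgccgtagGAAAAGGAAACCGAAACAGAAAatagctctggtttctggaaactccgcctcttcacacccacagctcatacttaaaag
Oas1g: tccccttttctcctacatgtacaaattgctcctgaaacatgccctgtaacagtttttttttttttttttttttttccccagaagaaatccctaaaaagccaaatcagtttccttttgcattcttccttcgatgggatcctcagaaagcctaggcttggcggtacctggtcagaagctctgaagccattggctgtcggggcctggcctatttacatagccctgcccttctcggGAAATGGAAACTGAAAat
Trim30a: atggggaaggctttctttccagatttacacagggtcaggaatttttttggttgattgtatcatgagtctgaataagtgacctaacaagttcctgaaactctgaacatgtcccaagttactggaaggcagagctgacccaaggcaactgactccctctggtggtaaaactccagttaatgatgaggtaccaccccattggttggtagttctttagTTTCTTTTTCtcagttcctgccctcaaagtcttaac
Ifi44: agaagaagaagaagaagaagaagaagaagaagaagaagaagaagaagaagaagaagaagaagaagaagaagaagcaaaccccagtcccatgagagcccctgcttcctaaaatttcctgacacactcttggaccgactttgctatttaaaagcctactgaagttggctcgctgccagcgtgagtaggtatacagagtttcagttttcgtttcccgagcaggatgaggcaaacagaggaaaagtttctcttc

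Ifi44 had the largest difference of the list without these letters in this window, and Ifit1 and Rsad2, with 2 and 1 matches, were among those with a small mean difference. The search counted only pairs of GAAA or TTTC with a gap of 2 bases. The Ifi44 stretch holds TTTC repeats at other gaps (tttcagttttcgtttc), which were not counted. The lack of a match there does not show that a response element is absent. These examples were also chosen by their values, so no relation between match count and size of the difference is drawn from them.

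Sensors of viral RNA shared the profile of the interferon-stimulated genes, and the rest of the RNA sensing and RNA interference list did not. Ddx58 (RIG-I) was at 9.42, 10.17 and 9.56 on the control arrays and at 9.32, 11.97 and 12.30 on the lincRNA-siRNA arrays. Ifih1 (MDA5) was at 7.31, 7.72 and 7.06 against 7.19, 9.22 and 9.49, and Dhx58 (LGP2) at 8.49, 8.62 and 8.41 against 8.35, 10.35 and 10.36. Their differences were 1.48 ± 0.64, 1.27 ± 0.52 and 1.18 ± 0.44, and second probes of Ddx58 and Ifih1 gave 0.99 and 0.74. Adar, which edits double-stranded RNA, was at 10.55, 10.98 and 11.24 against 11.29, 12.51 and 12.63 (1.22 ± 0.32, with 0.14 from a second probe), and Eif2ak2 (PKR), which stops translation on double-stranded RNA, differed by 0.68. Without lincRNA-siRNA array 1 these 5 genes passed, with differences of 2.42, 1.99, 1.85, 1.65 and 0.97. This too is a description only, since array 1 was the lowest lincRNA-siRNA array for each of them. In the whole list, 12 of 28 were higher, with a median of -0.09. At an unadjusted p under 0.05, 5 were higher and 5 lower (12.5% and 5.8% of all features). Tnrc6a, a partner of Argonaute in microRNA silencing, was the lower gene with the largest difference, at 10.68, 10.52 and 10.33 against 10.13, 9.81 and 9.85 (-0.58 ± 0.13). Dgcr8, which processes primary microRNAs, differed by -0.41 and Prkra, a partner of Dicer, by -0.44.

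A set of other genes set lincRNA-siRNA arrays 2 and 3 apart from array 1. H2-Eb1, a class II antigen-presenting chain, was at 8.05, 7.93 and 7.93 with the control siRNA and at 7.86, 6.03 and 5.78 with the lincRNA siRNA. Egr2, an immediate-early transcription factor, was at 11.41, 11.07 and 11.14 against 11.40, 9.82 and 9.85, and Cxcl16, a chemokine and scavenger receptor, at 10.20, 10.07 and 10.15 against 9.94, 9.05 and 8.97. In these genes array 1 was near the controls and the other two were lower, with mean differences of -1.41 ± 0.62, -0.86 ± 0.44 and -0.82 ± 0.34. The opposite held for Fabp4, a fatty acid carrier, at 7.41, 7.60 and 7.31 against 7.40, 9.33 and 9.38, and for S100a8, a calcium-binding alarmin, at 5.93, 6.10 and 5.99 against 5.82, 8.13 and 8.02. Ctsk, a lysosomal protease, was at 11.77, 11.70 and 11.74 against 12.27, 13.22 and 13.37, and Cd14, the LPS co-receptor, at 15.00, 14.93 and 14.99 against 15.13, 16.13 and 15.91. Here array 1 was closest to the controls, though above them in Ctsk and Cd14. The mean differences were 1.26 ± 0.56, 1.31 ± 0.65, 1.22 ± 0.42 and 0.75 ± 0.26. Itgb7, an integrin chain, was at 11.38, 11.34 and 11.70 against 11.52, 12.25 and 12.32 (0.56).

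Hmox1, the heme-degrading enzyme, differed in another way. It was at 14.03, 13.83 and 13.94 on the control arrays and at 11.50, 14.74 and 14.94 on the lincRNA-siRNA arrays, so that array 1 was below and arrays 2 and 3 above every control, with a mean difference of -0.21 ± 0.85 and 0.21 from a second probe. In the cells with LPS it was at 13.43, 14.07 and 14.13 with the control siRNA and at 12.87, 14.80 and 14.94 with the lincRNA siRNA.

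Tnfaip3, the coding neighbour of the target, did not pass. Its probe at chr10:18720776-18720835 read 11.46, 11.27 and 11.21 on the control arrays and 11.37, 10.70 and 10.74 on the lincRNA-siRNA arrays. Array 1 was within the control range and arrays 2 and 3 were below it, and the difference was -0.38 ± 0.20 (95% interval -0.82 to 0.06, limma adjusted p = 0.32, and -0.28 within slide 2). Of the 17 genes of the surrounding region on the array, Tnfaip3 included, 10 were tested, with a median of -0.24 (-0.27 within slide 2). None passed after adjustment (smallest limma adjusted p = 0.221). Of the 10, 9 were lower (41.8% of all features were), and 3 of these had an unadjusted p under 0.05 (5.8% of all features were lower at that p). Those 3 were Reps1, an endocytosis adaptor, at 9.43, 9.35 and 9.22 against 9.08, 8.89 and 8.86 (-0.39), Heca, the homologue of fly headcase, at 10.00, 9.98 and 9.96 against 9.84, 9.52 and 9.51 (-0.36), and Hebp2, a heme-binding protein, at 9.62, 9.23 and 9.63 against 9.15, 9.29 and 9.03 (-0.34). The other lower neighbours were Arfgef3 (-0.44), Abracl (-0.15, with 0.21 from another probe), Ccdc28a (-0.14), Ifngr1, the interferon gamma receptor chain (-0.14), and Cited2, a transcriptional coregulator (-0.07, with 0.38 from another probe and 0.03 within slide 2). Il22ra2, a soluble receptor for interleukin 22, was dim at 2.18, 1.81 and 4.60 against 3.98, 3.83 and 4.21, and its difference of 1.14 became -0.59 within slide 2.

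The NF-kB subunits and inhibitors went in both directions, and none passed after adjustment. Rela, the subunit p65, was at 14.15, 14.03 and 14.04 against 14.26, 13.99 and 14.03, a difference of 0.02 (95% interval -0.23 to 0.27). Nfkb1, the p105 precursor of p50, was at 9.71, 9.68 and 10.28 against 10.25, 9.79 and 9.69. Its difference was 0.02 (95% interval -0.50 to 0.53) and became -0.37 with the slide as a block. Control array 3 and lincRNA-siRNA array 1 were the 2 high arrays there, and a second probe gave -0.06. Rel, the subunit c-Rel, was at 2.20, 2.89 and 4.41 against 4.90, 4.93 and 5.31, well above background on 1 of 3 control arrays, and its difference of 1.88 shrank to 0.64 within slide 2. Of the 28 genes of the list 12 were higher, with a median of -0.09. At an unadjusted p under 0.05, 2 were higher and 2 lower (12.5% and 5.8% of all features). Tnip2, a partner of A20, differed by 0.35 (0.06 from a second probe), Ikbke, an IKK-related kinase, by -0.50, Map3k14, the NF-kB inducing kinase, by -0.29 and Relb, of the alternative pathway, by -0.32.

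Hmgb1, the chromatin protein described as a partner of the lincRNA, was at 13.75, 13.91 and 13.66 against 12.96, 13.48 and 13.87, a difference of -0.34 (95% interval -0.80 to 0.13). The 3 lincRNA-siRNA arrays spread over more than the controls did, and the other probes of the gene gave -0.26 to 0.14. In its list of HMGB proteins and chromatin partners 4 of 17 were higher (58.2% of all features were), and the median was -0.09. In either direction, 0 had an unadjusted p under 0.05 (18.4% of all features).

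Inflammatory cytokines were divided between both directions, and most TLR4 pathway genes were slightly lower. Tnf was at 14.87, 14.79 and 14.93 against 14.75, 14.95 and 14.86, a difference of -0.01 (95% interval -0.23 to 0.22), and Il1b at 10.35, 10.20 and 10.22 against 10.17, 10.16 and 10.18 (-0.09, -0.46 to 0.29). Both intervals exclude a 2-fold difference. Il6 was at 4.89, 5.11 and 4.94 against 4.72, 5.81 and 6.24 (0.61, -0.15 to 1.38), with array 1 again the lowest. Of 21 cytokine genes 10 were higher, and at an unadjusted p under 0.05, 3 were higher and 4 lower (12.5% and 5.8% of all features). Il1rn, the interleukin 1 receptor antagonist, was at 2.29, 3.16 and 3.55 against 4.03, 5.25 and 4.66 (1.65, and 1.09 within slide 2). It was well above background on only 1 of the 3 control arrays, so the size of its difference is uncertain. Lif, a cytokine of the interleukin 6 family, was at 5.59, 4.30 and 4.17 against 3.98, 3.55 and 2.55 (-1.33), well above background on 2 of 3 arrays of each group. Of 23 TLR4 pathway genes 17 were lower (41.8% of all features were). At an unadjusted p under 0.05, 2 were higher and 2 lower (12.5% and 5.8% of all features). Their median was -0.16 and -0.10 with the slide as a block, and on slide 2 all 3 lincRNA-siRNA arrays were below control array 3 in 12 genes and above it in 5 (23.7% and 20.3% of all features).

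Chemokines had a median difference that depended on whether the slide was a block. Of 14 genes 11 were higher (58.2% of all features were), with 4 higher and 1 lower at an unadjusted p under 0.05 (12.5% and 5.8% of all features). The median of 0.58 was 0.06 with the slide as a block. Within slide 2 the arrays were divided. Relative to control array 3, 5 of the 14 were higher on lincRNA-siRNA array 1 and 10 on each of arrays 2 and 3. The medians of these differences were -0.18, 0.18 and 0.35 on arrays 1, 2 and 3. Cxcl2, a neutrophil attractant, was at 9.59, 9.11 and 9.40 against 9.75, 11.32 and 10.83 (1.27 ± 0.35, and 1.23 with the block). Ccl2, a monocyte attractant, was at 11.07, 11.34 and 11.13 against 10.27, 12.52 and 12.40 (0.55 ± 0.59), with array 1 below and arrays 2 and 3 above every control. Ccl4 differed by 0.74, and Ccl3 by 0.62 across slides but 0.10 within slide 2. Cxcl2 and Ccl4 passed without lincRNA-siRNA array 1, at 1.71 and 1.01. That array was singled out after its values were seen, so this is a description only.

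Targets of NRF2, the transcription factor of the oxidative stress response, were mostly higher, several of them on all 3 lincRNA-siRNA arrays alike. Of 22 tested 18 were higher (58.2% of all features were), with 7 higher and 0 lower at an unadjusted p under 0.05 (12.5% and 5.8% of all features). In 11 all lincRNA-siRNA arrays were above all controls (12.1% of all features), and the median of the list was 0.24 (0.19 with the slide as a block, and 0.28 with LPS). None passed. Srxn1, sulfiredoxin, was at 12.57, 12.37 and 12.67 against 13.25, 13.37 and 13.25, a difference of 0.75 ± 0.13 (limma adjusted p = 0.175, and 0.62 with the block). Txnrd1, thioredoxin reductase, was at 13.53, 13.48 and 13.72 against 13.88, 14.11 and 13.95 (0.40), and Gclm, of glutathione synthesis, at 9.29, 9.27 and 9.34 against 9.50, 9.88 and 9.86 (0.45). In these 3 and in Taldo1, a member of the list, no lincRNA-siRNA array reached down to a control. Slc7a11, the cystine transporter, differed by 0.59. Ftl1, ferritin light chain, differed by 0.83 across slides, by 0.12 within slide 2 and by 0.27 on another probe. On slide 2 alone, all 3 lincRNA-siRNA arrays were above control array 3 in 13 of the 22 genes and below it in 1 (20.3% and 23.7% of all features).

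Protein-folding stress genes were also mostly higher on average, and none passed. Of 17 heat shock genes 17 were higher (58.2% of all features were), 7 at an unadjusted p under 0.05 (12.5% of all features), with a median of 0.25 and 0.18 with the block. Hspd1, the mitochondrial chaperonin, was at 15.45, 15.48 and 15.94 against 16.09, 16.09 and 16.20 (0.50, and 0.19 with the block). Hspa8, the constitutive HSC70, was at 15.48, 15.72 and 16.78 against 16.80, 16.75 and 17.16 (0.91, and 0.13 with the block, with 0.24 and 0.39 from other probes), so that control array 3 sat with the lincRNA-siRNA arrays. Of 31 genes of the unfolded protein and integrated stress response 25 were higher, with a median of 0.20 (0.10 with the block). At an unadjusted p under 0.05, 9 were higher and 3 lower (12.5% and 5.8% of all features). Relative to control array 3, 13 of the 31 were higher on lincRNA-siRNA array 1, 23 on array 2 and 22 on array 3. Hspa5 (BiP), the chaperone of the endoplasmic reticulum, differed by 0.51 (0.33 with the block) and Herpud1, of its degradation machinery, by 0.53. Trib3, a pseudokinase induced by ATF4, was at 11.03, 10.98 and 11.48 against 11.54, 12.14 and 12.32 (0.83, and 0.52 with the block). Edem1, which targets misfolded glycoproteins for degradation, went the other way at 13.84, 13.78 and 13.53 against 13.09, 12.91 and 12.69 (-0.82 ± 0.20).

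Among effectors of activated macrophages and immediate-early genes, single genes were separated from all controls. Slpi, a secreted protease inhibitor, was at 11.09, 11.15 and 10.71 against 11.84, 12.44 and 12.62, a difference of 1.31 ± 0.23 (limma adjusted p = 0.175, and 1.58 with the slide as a block). Clec4e (Mincle), a receptor for microbial glycolipids, was at 12.30, 12.14 and 12.33 against 12.77, 13.33 and 13.30 (0.88 ± 0.16). Nos2, the inducible nitric oxide synthase, was at 11.96, 11.94 and 12.05 against 12.17, 13.05 and 12.85 (0.71). In each, array 1 was above the controls but below arrays 2 and 3. Of the 27 effector genes, 5 were higher and 1 lower at an unadjusted p under 0.05 (12.5% and 5.8% of all features), with a median of -0.07. Maff, a small Maf protein, was at 8.31, 8.30 and 8.38 against 8.83, 8.83 and 8.92 (0.53 ± 0.10). Myc was at 12.77, 12.81 and 12.70 against 12.32, 12.06 and 11.94 (-0.65), and Fos, of AP-1, differed by -0.47. Of the 33 immediate-early and MAPK feedback genes, 4 were higher and 5 lower at that p (12.5% and 5.8% of all features).

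The p53, inflammasome and complement lists had members in both directions, and most antigen presentation genes were higher on average. Over all features 58.2% were higher, and at an unadjusted p under 0.05, 12.5% were higher and 5.8% lower. Of 23 p53 targets 4 were higher and 4 lower at an unadjusted p under 0.05, among them Btg2, an antiproliferative gene, at 8.85, 8.67 and 8.59 against 8.21, 8.24 and 8.14 (-0.50), Polk, a translesion polymerase (-0.46), and Gadd45a, a growth arrest gene (0.65). Of 35 inflammasome and cell death genes 6 were higher and 5 lower, among them Casp1 (0.53), the proapoptotic Bcl2l11 (0.55) and Nlrc5, the activator of class I genes, at 7.04, 6.96 and 6.60 against 7.21, 8.20 and 8.31 (1.04, and 0.29 from a second probe). Of 24 antigen presentation genes 20 were higher, 6 at that p and 2 lower at that p, with a median of 0.22 (0.26 with the block). Relative to control array 3, 6 of the 24 were higher on lincRNA-siRNA array 1 and 19 on each of arrays 2 and 3. Psmb10, an immunoproteasome subunit, was at 12.73, 12.92 and 13.37 against 13.49, 14.31 and 14.32 (1.04 ± 0.25), while H2-Eb1 was the lower gene described above. Of 23 complement, Fc and scavenger receptor genes 4 were higher and 3 lower, and Cfb, complement factor B, was at 5.30, 5.71 and 4.71 against 4.65, 7.09 and 6.85 (0.96). Of 19 macrophage identity genes 5 were higher and 0 lower at that p. Lyz2, lysozyme, was at 13.81, 13.51 and 13.95 against 14.29, 14.92 and 14.79 (0.91), and the median of 0.18 became -0.05 with the block.

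Metabolic and other lists are given by their counts at an unadjusted p under 0.05, higher then lower, and by the gene with the largest difference. Each count is to be read beside the shares over all features, 12.5% higher and 5.8% lower. Glycolysis and hypoxia had 6 and 3 of 27, with Hk1, hexokinase, at 1.15 across slides, 0.03 within slide 2 and -0.07 and -0.17 from other probes. Adm, the hypoxia-induced adrenomedullin, was at 10.86, 10.59 and 10.67 against 10.13, 9.71 and 9.37 (-0.97 ± 0.18). LXR and PPAR lipid handling had 2 and 4 of 23, with Fabp4 and with Plin2, a lipid droplet coat protein (0.61). Sterol and fatty acid synthesis had 0 and 1 of 30, and Hmgcs1 differed by -0.34 (-0.16 within slide 2). Oxidative phosphorylation had 3 and 0 of 43 (Atp5h 0.55, 0.02 within slide 2 and 0.09 from another probe). Lysosome genes had 6 and 2 of 36 and osteoclast genes 4 and 2 of 12 (Ctsk in both). Metal handling genes had 2 and 0 of 14. Cell cycle and DNA replication had 5 and 5 of 47 (Aurkb -0.83, and -0.21 within slide 2). Replication-dependent histones had 10 and 0 of 38, with a median of 0.14 (0.05 with the block). H2ac21 differed by 0.98 and by 0.34 within slide 2. Alternative activation had 1 and 1 of 11 (Ccl24 1.35, 0.42 within slide 2, well above background on only 1 of 3 control arrays). Integrins and adhesion had 1 and 0 of 18. Cytokine mRNA decay had 3 and 2 of 21 (Khsrp 0.75, 0.34 from another probe and 0.07 within slide 2). Known long noncoding RNAs had 1 and 0 of 22 (H19 -0.77, and 0.43 within slide 2). The circadian clock had 2 and 1 of 14, and Bhlhe41, a clock repressor, was at 4.37, 4.25 and 5.13 against 5.59, 5.87 and 5.91 (1.21, and 0.66 with the block). Bhlhe41 too was well above background on only 1 of the 3 control arrays.

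Ribosomal protein and housekeeping genes were lower in the median on control arrays 1 and 2, of slide 1, than on the 4 arrays of slide 2. Only control array 3 of the controls lay on slide 2, and control arrays 1 and 2 had the fewest probes well above background. Slide, that measure and single arrays therefore cannot be told apart here. Of the 69 cytoplasmic ribosomal protein genes, 62 were higher with the lincRNA siRNA (58.2% of all features were), 16 of them at an unadjusted p under 0.05 (12.5% of all features). The median of these 69 genes was 0.24, and -0.01 with the slide as a block. Relative to the mean of the 6 arrays, their median was -0.33 and -0.19 on control arrays 1 and 2, 0.14 on control array 3, and 0.15, 0.03 and 0.19 on the lincRNA-siRNA arrays. Rps24 was at 16.07 and 16.39 on slide 1 and at 17.57 on control array 3, against 17.58, 17.45 and 17.55 with the lincRNA siRNA, so that its difference of 0.85 was -0.05 within slide 2. The other probes of Rps24 gave 0.36 to 1.05. Rpl7a differed by 0.72 and by -0.04 with the block, and its other probes gave 0.39, 0.45 and -0.09. Gapdh was at 17.01, 17.25 and 18.06 against 18.13, 18.08 and 18.03 (0.64, and 0.02 with the block, with 0.01 to 0.29 from other probes), and Eef1a1, elongation factor 1 alpha, differed by 0.87 (0.54 from a second probe) and by 0.06 with the block. Of 16 housekeeping genes 13 were higher, 6 at that p, with a median of 0.32 and 0.05 with the block. Without control array 3, 23 of the 69 ribosomal protein genes passed (33.3%, against 10.7% of all features).

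**Figure D3:**
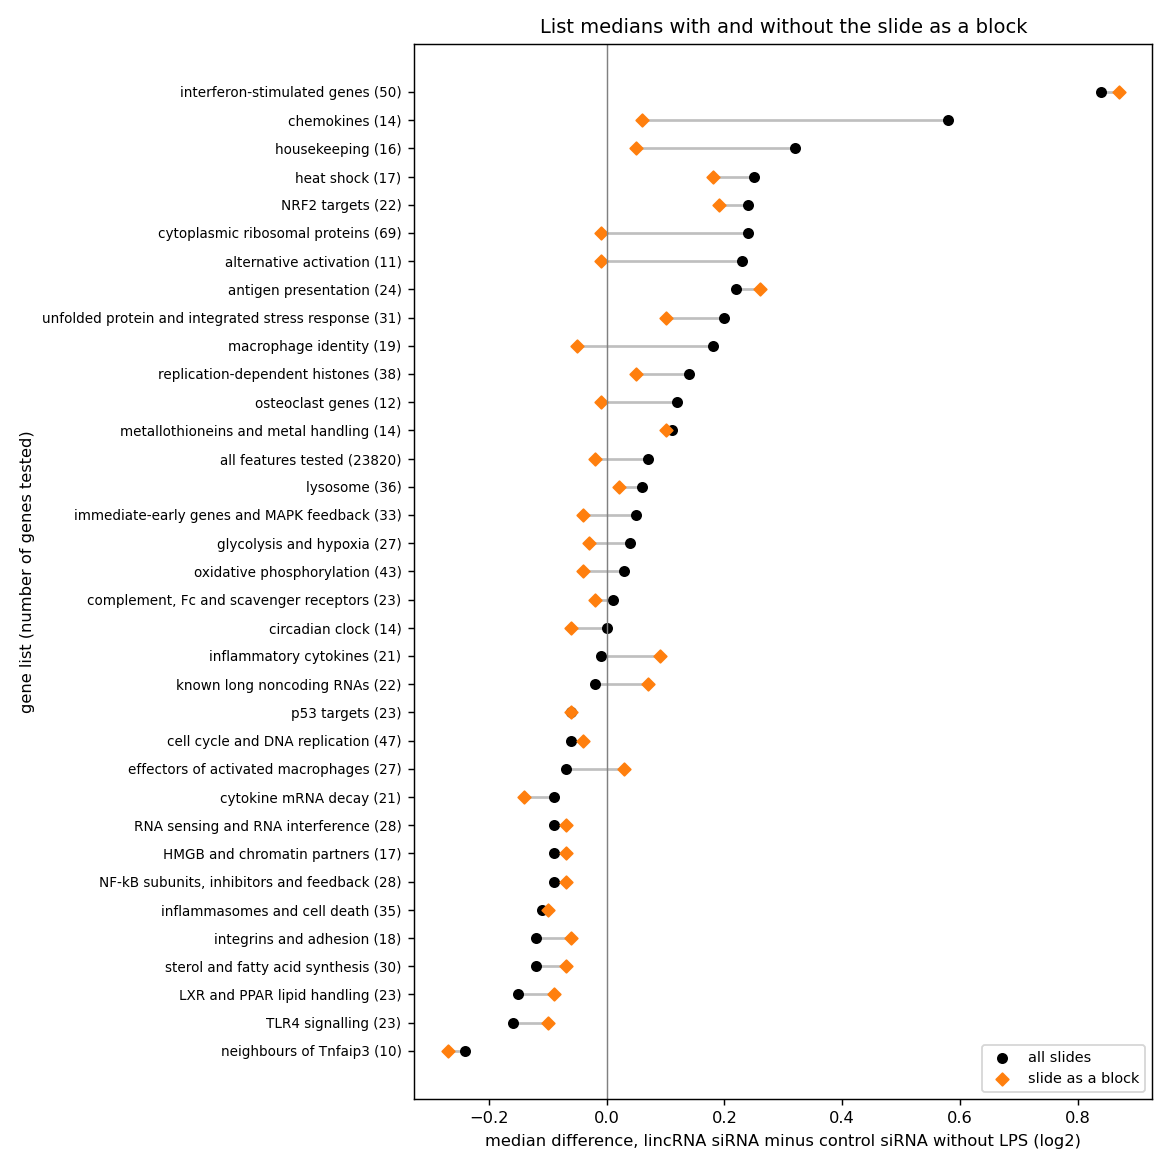
Median log2 difference, lincRNA siRNA minus control siRNA without LPS, of each gene list (number of genes tested in brackets), over all slides (black circles) and with the slide as a block (orange diamonds). Interferon-stimulated genes stand at 0.84 and 0.87, while chemokines go from 0.58 to 0.06, housekeeping genes from 0.32 to 0.05 and ribosomal protein genes from 0.24 to -0.01.

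Dim features divided the arrays in the same way, with the same limit. With the tested features ordered by mean signal and cut into 5 equal bins, in the dimmest bin the median difference was 0.37, and -0.03 with the slide as a block. There 858 features were higher and 118 lower at an unadjusted p under 0.05, together 20.5% of the bin, against 18.4% of all features. Relative to the mean of the 6 arrays the median of this bin was -0.45 and -0.21 on control arrays 1 and 2, 0.25 on control array 3, and 0.18, 0.22 and 0.29 on the lincRNA-siRNA arrays. In bins 3 and 4 the median difference was 0.02 and -0.02. The 3521 lincRNA regions, array features placed on intergenic stretches, had 473 higher and 102 lower at that p, together 16.3%, against 18.4% of all features. Their median was 0.16 (0.02 with the block), and none passed (smallest limma adjusted p = 0.175).

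**Figure D4:**
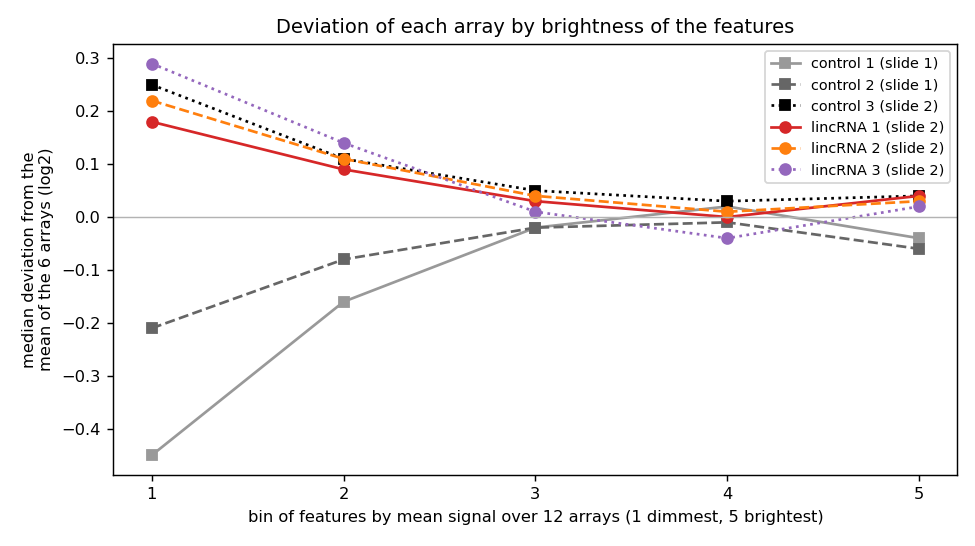
Median deviation of each array from the mean of the 6 arrays without LPS (log2), for 5 equal bins of the 23820 features ordered by mean signal over the 12 arrays, from dimmest (1) to brightest (5), with squares for control and circles for lincRNA-siRNA arrays. In the dimmest bin the arrays of slide 1 are at -0.45 and -0.21 and those of slide 2 at 0.18 to 0.29, control array 3 among them at 0.25.

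Some genes with a wide range over the arrays of 1 group are given as a description. Zscan20, a zinc finger gene, was at 11.29 on lincRNA-siRNA array 3 and at 6.81 to 7.09 on the other five arrays, and Siah1a, a ubiquitin ligase, at 9.58 on that array against 5.07 to 6.39. Cacna1a, a calcium channel subunit, was at 12.29 on control array 2 and at 6.66 to 7.33 elsewhere, with 0.62 from another probe against -1.68 from this one. Slc35f3 was at 8.95 on control array 3, 5.00 and 5.56 on the other controls and 3.92, 4.33 and 4.35 on the lincRNA-siRNA arrays. Lhb, a hormone subunit, was at 7.27, 8.10 and 8.17 against 5.77, 4.42 and 9.03, and Slc17a8, a glutamate transporter, at 6.75, 4.59 and 6.54 against 6.73, 8.73 and 4.17. Paqr6, a membrane progesterone receptor, was at 7.35, 7.74 and 4.06 against 4.26, 5.81 and 7.52. Car14, a carbonic anhydrase, was at 6.97, 8.07 and 4.69 against 4.73, 7.05 and 8.44, and Bgn, the matrix protein biglycan, at 9.13, 8.38 and 5.82 against 5.92, 7.73 and 10.18. In these 3 genes control array 3 and lincRNA-siRNA array 1 were the 2 lowest arrays.

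The effect of the lincRNA siRNA was not shown to differ between cells without and with LPS. No feature passed the interaction test in limma (883, or 3.71%, at an unadjusted p under 0.05), and none passed with LPS (1122 at that p). The gene symbols with the smallest unadjusted interaction p were Fam102a, Mroh4 and Tbc1d24, whose difference was 0.54, 1.35 and 0.58 higher with than without LPS, and Serpina5, Otor and Hook1 in the other direction. Neither Serpina5, a serine protease inhibitor, nor Otor, otoraplin, was well above background on any control array without LPS, and Serpina5 was not on any lincRNA-siRNA array without LPS either, so no differences are given for them. Serpina5 had 2 usable values in the group with control siRNA and LPS.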

How the data were processed

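Spot intensity values were deposited as Agilent Feature Extraction output (version 10.7.1.1, per the file headers), background-subtracted and detrended within each array, with probe positions on mm9 per the file headers. The authors' value table, read as log2 intensity, served only as an alternative, its normalization not being given in the sources used here.

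Outlier spots were left out, spots of a probe averaged, and log2 processed intensity scaled to the 75th percentile of each array. Kept were 33163 of 55681 probes, those well above background on every array of some group. The brightest kept probe stood for a gene. Accessions of 26680 probes matched the RefSeq gene table (GRCm38.p6), used for names and promoters only. limma 3.58.1 in R 4.3.3 fitted a mean per group to all 12 arrays (8 residual degrees of freedom). Adjusted p-values are Benjamini-Hochberg over 23820 features, threshold 0.05, and errors of differences are standard errors. The script was tested on simulated data. Alternatives covered slide, scaling, background, filter, probe choice, array weights and leaving out each array.

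The comparison and the gene lists were chosen with earlier results of these data known. Named were, where none passed, the 5 symbols of smallest p each way, the largest difference of each list, Tnfaip3 and its neighbours, Hmgb1, Rela, Nfkb1, Tnf, Il6, Il1b, Ccl2, the 5 widest ranges over each group's arrays and the 3 smallest interaction p each way. Other genes named were chosen after their values were seen.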

Additional observations from a re-analysis of the deposited data

How the results depend on the processing

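The count of 0 features passing without LPS was also 0 on slide 2 alone, with the slide as a random block, with the 6 arrays only, with quantile or median scaling, in the authors' value table, without the filter on dim probes, with the filter on all 12 arrays and with outlier spots kept. It was 1 with the slide as a fixed block, 5 with normexp background and quantile normalization (Cnnm2, Top1mt, Cfl2, Trp53inp1 and C3ar1, while the Hook1 difference went from 2.50 to 0.40), 2 with the mean of all kept probes of a gene (Hook1 and Hcar2) and 4927 with array weights. Leaving out 1 array gave 0 to 2540, and 0 to 357 for the interaction (357 without control array 3, 3 without lincRNA-siRNA array 1). With LPS it was 2 with the slide block. With the replicate number as a block it was 0. Deviations of same-numbered arrays correlated at 0.08, -0.27 and -0.25, so the numbers did not pair them. The cause of these moves was not tested.

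The median of the interferon-stimulated genes kept its direction in every alternative run. Signs of single genes reversed as follows. With the slide as a fixed block or on slide 2 alone this gave Il22ra2 -0.59, Rps24 -0.05, Rpl7a -0.04, Nfkb1 -0.37, Cxcl10 -0.01, Cited2 0.03, Cacna1a 0.24, Paqr6 1.80, Cd79a -0.26, Snap25 -0.34 and H19 0.43, and with the random block Nfkb1 -0.06. Quantile scaling gave Rela -0.06, normexp Rela -0.03, Nfkb1 -0.04 and Gapdh -0.23, and the authors' table Rela -0.06 and Il6 -0.31. The mean of probes gave Nfkb1 -0.02, Abracl 0.03, Cited2 0.15 and Cxcl10 -0.52. Array weights gave Rela -0.01, Tnf 0.08, Siah1a -0.19, Car14 -0.59, Bgn -0.35, Rsad2 -0.21, Hmox1 0.37 and Hba-a1 -0.04. Leaving out 1 array spanned 0 for Rela (-0.06 to 0.07), Nfkb1 (-0.15 to 0.21), Tnf (-0.06 to 0.04), Cxcl10 (-0.13 to 0.35), Ifit1 (-0.06 to 0.47), Rsad2 (-0.28 to 0.46), Ifnb1 (-0.01 to 0.84), Hmox1 (-0.82 to 0.90), Hba-a1 (-0.27 to 0.46), Serpina5 (-0.18 to 0.06), DQ140166 (-1.23 to 0.11), Slc17a8 (-0.50 to 1.77), Siah1a (-0.80 to 1.46), Zscan20 (-0.05 to 2.17), Cacna1a (-2.64 to 0.08), Paqr6 (-1.68 to 0.28), Car14 (-0.78 to 1.17) and Bgn (-0.95 to 1.18). With 3 arrays per group, the number of arrays limits precision.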

Other observations

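Several genes that set lincRNA-siRNA array 1 apart from arrays 2 and 3 without LPS also split the arrays of the control siRNA with LPS. H2-Eb1 was at 8.31, 6.02 and 6.49 on arrays 1, 2 and 3 of the control siRNA with LPS and at 6.18, 6.64 and 6.44 with the lincRNA siRNA and LPS. Ctsk was at 11.25, 12.84 and 12.91 against 13.45, 13.26 and 13.18, and Fabp4 at 8.60, 10.28 and 10.26 against 10.48, 10.38 and 10.07. Cxcl16 was at 11.16, 9.90 and 9.98 against 9.76, 9.70 and 9.76, and Egr2 at 11.43, 10.33 and 10.19 against 10.67, 10.50 and 10.28. In these 5 genes array 1 of the control siRNA with LPS lay apart from the other five arrays with LPS. For each of them it lay on the side of the control arrays without LPS. All 3 arrays of the control siRNA with LPS were on slide 2. The 5 genes were chosen after their values were seen, and no test was run.

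Paqr6, Car14 and Bgn also varied together on the arrays with LPS. With the control siRNA they were at 5.18, 7.49 and 3.61, at 5.08, 8.02 and 4.10, and at 6.13, 9.32 and 7.79, and with the lincRNA siRNA at 4.88, 7.74 and 4.49, at 5.38, 8.78 and 5.15, and at 7.26, 10.53 and 6.50. Array 2 was the highest array of its group for all 3 genes with either siRNA.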
